A study of Mus musculus with 32 samples.

Results

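The comparison set bone marrow cells that lacked lineage markers, Sca-1 and cKit against total bone marrow of the mouse, across all genes of a pair of Affymetrix expression arrays. The samples were chosen by their titles: the 3 samples titled Lin-Sca-1-cKit-, called cKit-negative cells here, and the 3 titled Total, called total marrow. They are 6 of 16 RNA samples of the study, and each was hybridised to 1 array of each chip type, A and B, which gave 12 of its 32 arrays. The cKit-negative cells had been depleted of cells with lineage markers, stained for the surface proteins Sca-1 and cKit and purified by flow cytometry, with a purity over 90% estimated by the submitters. The labels describe them as progenitors downstream of stem cells, thought to lean to the lymphoid lineage. Total marrow is the whole marrow cell suspension, with no sort recorded, and the labels give it as a baseline for the sorted fractions. The fit also used 3 samples each of lineage-depleted marrow, of Lin-Sca-1-cKit+ cells (called cKit-positive) and of cells described as highly enriched in stem cell activity (called stem-enriched), while 1 sample of Lin-Sca-1+cKit- cells had no replicate and did not enter it. The question was which transcripts differ between the sorted fraction and the marrow it came from. RNA was at 12 to 226 ng/ul in cKit-negative cells, against 130 to 390 ng/ul in total marrow, where more cells went into each preparation. The labels name no strain, age, sex, genotype or treatment for either population, and nothing in them tells whether replicates are separate animals, so that p-values reflect the spread between samples, which may be technical.

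Marrow holds the precursors of all blood cells beside mature cells that live in it or pass through it. Antibodies against lineage markers take away most mature granulocytes, red cell precursors, B cells, T cells and macrophages. cKit, the receptor for stem cell factor, is carried by stem cells, early progenitors and mast cells, and Sca-1 by stem cells and by some lymphocytes. A cell that carries none of these can be a late precursor, a mature cell of a kind the antibodies do not reach, or a cell whose antigen was too weak to be removed. Basophils, for example, carry the high-affinity IgE receptor and granule proteases but little cKit. Natural killer cells carry no T cell receptor and lyse targets with perforin and granzymes.

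The transcript of Kit was measured first. It had a signal of 722.9, 757.6 and 1276.4 in cKit-negative cells, against 1575.3, 2330.1 and 1622.7 in total marrow. The groups did not overlap for this probe set, the brighter of a pair, and Kit was 2.04-fold lower in cKit-negative cells (log2 difference -1.03 ± 0.23 standard error, limma adjusted p = 0.0531, which misses the threshold of 0.05, or 0.0193 without an outlying cKit-positive sample described with the counts). The dimmer Kit probe set had a log2 difference of -0.03 (adjusted p = 0.992). Of the lineage antigens on the arrays, Ptprc (CD45, carried by nearly all leukocytes) had signals of 41404.7, 39704.8 and 35846.0 in cKit-negative cells, against 29833.2, 44125.5 and 41124.7 in total marrow (log2 difference 0.04 ± 0.27, adjusted p = 0.983). Itgam, the myeloid integrin CD11b, had 1375.6, 1260.7 and 574.0 in cKit-negative cells, against 1083.6, 1659.2 and 1141.0 in total marrow (log2 difference -0.35 ± 0.45, adjusted p = 0.871). These values overlapped between the populations, so that no loss of either transcript was detectable with 3 samples each. Of 8 lineage antigens tested, Cd2 was higher and Ms4a1 (CD20) lower in cKit-negative cells, beside 0.592% and 0.289% of all genes. The others (Cd3e, Cd5, Cd8a, Itgax, Itgam and Ptprc) did not pass. Cd3e had 942.6, 1138.3 and 1423.2 in cKit-negative cells, against 381.3, 87.45 and 472.6 in total marrow (adjusted p = 0.141, or 0.0352 without the outlying cKit-positive sample). Itgax, the dendritic cell integrin CD11c, had 2281.3, 1783.3 and 2028.5 in cKit-negative cells, against 1034.7, 763.7 and 689.8 in total marrow (adjusted p = 0.0678, or 0.00499 without that sample).

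Every array had been scaled to nearly the same trimmed mean, which by itself brings the signal levels of the 12 arrays close together. For chip type A the arrays had median signals of 453 to 547.4, for chip type B of 789.9 to 894.6. Precision is limited by how many arrays there were. On chip type A the log2 signal of the Gapdh control at its 3 prime end minus that at its 5 prime end (higher where RNA is more degraded or its labelling stops early) was 3.09 ± 0.23 in cKit-negative cells, against 3.12 ± 0.33 in total marrow (SD, n = 3 each), a difference of -0.03 (exact permutation p = 0.9, two-sided; 3 against 3 samples cannot go below 0.1). Pearson correlations over the tested probe sets, which are not independent replicates, lay between 0.877 and 0.895 within cKit-negative cells, between 0.918 and 0.934 within total marrow and between 0.855 and 0.881 across them. On each chip type the cKit-negative arrays were scanned on 1 day and the total marrow arrays on another, and on chip type B they also came from different lots, so that scan day, and lot on chip type B, cannot be told apart from population.

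The limma fit over 15 samples of 5 populations called 132 of 28606 probe sets higher (0.461%) and 61 lower (0.213%) in cKit-negative cells, and 3095 had an unadjusted p under 0.05. With 1 probe set for each of 13503 genes, 80 genes were higher (0.592%) and 39 lower (0.289%), with a median log2 difference of 0.01 over all genes. In bulk RNA, fewer cells of a type and less RNA per cell cannot be told apart. Replicate 2 of the cKit-positive cells, which enters this comparison through the shared spread alone, correlated with the other samples at 0.567 to 0.689, against 0.738 to 0.934 for all other pairs. Its Gapdh 3 prime to 5 prime log2 ratio was 0.38 on chip type A and 0.18 on chip type B. The 6 compared samples had 2.74 to 3.38 on chip type A and 2.62 to 3.58 on chip type B. Without this cKit-positive sample 421 probe sets were higher and 305 lower, all 193 of the first fit among them, and 239 genes were higher (1.77%) and 194 lower (1.44%). With only cKit-negative cells and total marrow in the fit, 251 probe sets were higher and 165 lower. On chip type A cKit-negative replicate 1 shared a chip lot with none of the other 5 samples, and no lot held both populations, so that the effect of lot was estimated from differences between lots within populations. With lot as a block on chip type A, 13 probe sets were higher and 6 lower, and 9 of the 63 called genes named in the text stayed past the threshold: Mcpt8, Cpa3, Cd200r3, Ccl3, Hgf, Prkcq, Dusp5, Fcnb and Csf3r. Of these, Cd200r3, Hgf, Dusp5 and Fcnb are on chip type B, where no lot block was fitted. Their calls could therefore change through the joint adjustment of p-values alone. Of the called probe sets, 7 higher and 1 lower were also on chip type B. With scan day as a random block 50 probe sets were higher and 12 lower, and on chip type B the estimated correlation within a scan day was 0. Leaving out cKit-negative replicate 1, 2 or 3 gave 107, 65 or 50 higher and 134, 23 or 9 lower probe sets, and leaving out total marrow replicate 1, 2 or 3 gave 114, 50 or 55 higher and 58, 9 or 8 lower. All 63 called genes kept their sign in every alternative in which they were tested.

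**Figure D1:**
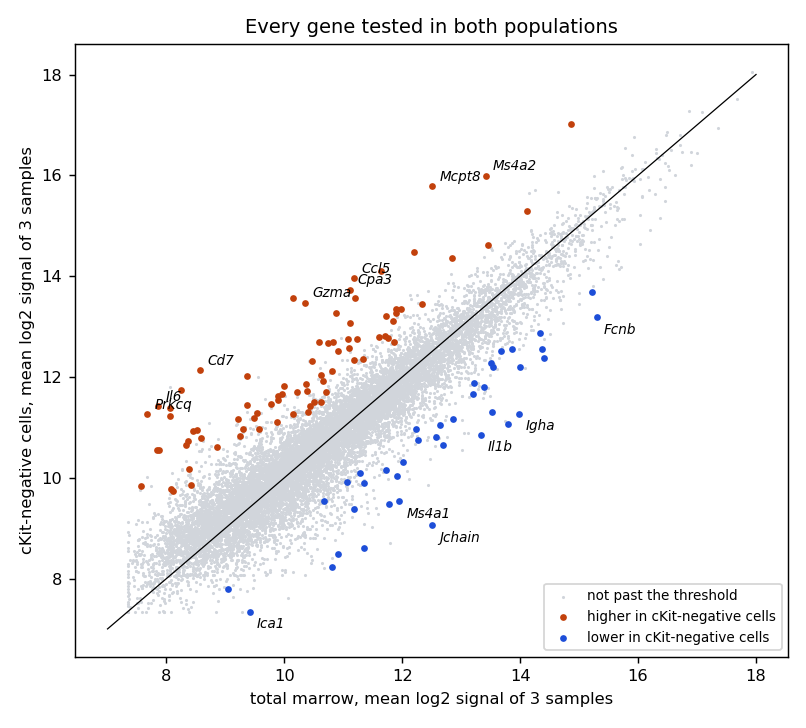
Mean log2 signal of 3 samples for each of 13503 genes, cKit-negative cells on the vertical axis and total marrow on the horizontal axis, with genes past the threshold in colour and the line of equal signal. The 80 genes higher in cKit-negative cells lie above the line and the 39 lower ones below it, with Mcpt8, Prkcq and Cd7 among the farthest above and Jchain among the farthest below.

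Mast cell and basophil genes held the largest number of calls of the 28 gene lists that were described, in the fit over 15 samples. Of 23 listed genes on the arrays 20 were tested, 9 were higher and 0 lower in cKit-negative cells, beside 0.592% and 0.289% of all genes, and the median log2 difference was 1.12 against 0.01 for all genes. Without the outlying cKit-positive sample 9 of the 20 were again higher and 0 lower, beside 1.77% and 1.44% of all genes. In that fit the natural killer and cytotoxic list held more calls (13), as did the T cell list (11). The protease Mcpt8 is made by basophils in the mouse. It had signals of 57826.3, 51728.8 and 59882.2 in cKit-negative cells, against 6284.3, 5205.1 and 6004.8 in total marrow. The 3 cKit-negative samples lay close together and far above the 3 others, and Mcpt8 was 9.70-fold higher (log2 difference 3.28 ± 0.27, adjusted p = 1.75e-05). Cpa3, the carboxypeptidase of mast cell and basophil granules, had 14309.1, 11358.9 and 15533.6 in cKit-negative cells, against 2322.8, 2380.9 and 1988.4 in total marrow. It was 6.12-fold higher (2.61 ± 0.20, adjusted p = 6.93e-06), which was the lowest adjusted p of the genes named here.

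Both chains of the high-affinity IgE receptor that are particular to it, Fcer1a and Ms4a2, were also higher. Fcer1a, the chain that binds IgE, had 1919.5, 2751.1 and 1413.7 in cKit-negative cells, against 293.2, 454.6 and 317.1 in total marrow, and was 5.61-fold higher (2.49 ± 0.36, adjusted p = 0.0035). Ms4a2, the signal-amplifying beta chain, had 62178.3, 55999.6 and 79720.2 in cKit-negative cells, against 11747.8, 10320.4 and 10744.4 in total marrow, and was 5.97-fold higher (2.58 ± 0.59, adjusted p = 0.0497). No sample of either gene overlapped with the other population, but the adjusted p of Ms4a2 lay just under the threshold and came to 0.0847 to 0.199 when any 1 of the 6 samples was left out. Cd200r3, an activating receptor of basophils and mast cells, had 2724.1, 1968.9 and 2511.8 in cKit-negative cells, while its 3 signals in total marrow (124.9, 263.5 and 141.7) lay under the floor of 268.1 of chip type B. It was therefore at least 8.87-fold higher (adjusted p = 0.00244). Gata2, a transcription factor of mast cells, basophils and early progenitors, had 7552.6, 5752.0 and 8593.1 in cKit-negative cells, against 3597.6, 2982.8 and 3526.4 in total marrow, and was 2.15-fold higher (1.10 ± 0.21, adjusted p = 0.0188, but 0.134 without cKit-negative replicate 3, 0.124 without total marrow replicate 2 and 0.0815 without total marrow replicate 3).

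The other called members of this list, Il6, Ccl3 and Ccl4, are cytokines, which T cells, natural killer cells and macrophages make as well. Il6 had 1906.0, 4073.4 and 2672.4 in cKit-negative cells, against 77.69, 213.7 and 363.3 in total marrow, where replicate 1 was raised to the floor of 162.3 of chip type A, and was at least 11.8-fold higher (adjusted p = 0.00189). The chemokine Ccl3 had 22966.6, 15964.9 and 14780.0 in cKit-negative cells, against 4142.3, 2204.5 and 3509.2 in total marrow, and was 5.53-fold higher (2.47 ± 0.26, adjusted p = 0.000294). Its relative Ccl4 had 10719.6, 9814.6 and 9217.6 in cKit-negative cells, against 1732.8, 1424.6 and 2726.1 in total marrow, and was 5.24-fold higher (2.39 ± 0.27, adjusted p = 0.000638). Each of the 3 separated the populations without overlap. Hgf, hepatocyte growth factor, is in none of the lists. It had 1610.0, 4008.9 and 2976.9 in cKit-negative cells, with all 3 total marrow samples under the floor (203.2, 165.3 and 206.4 on chip type B), and was at least 9.99-fold higher (adjusted p = 0.00828, but 0.0588 without cKit-negative replicate 2 and 0.0598 without cKit-negative replicate 3). Another probe set of Hgf, on chip type A, had a log2 difference of 0.80 (adjusted p = 0.686), and another of Ms4a2 had 1.19 (adjusted p = 0.0852). The calls of Mcpt8, Cpa3, Fcer1a, Cd200r3, Il6, Ccl3 and Ccl4 held whichever of the 6 samples was left out. The 11 other tested members of the list did not pass, with log2 differences between -0.37 and 1.27.

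From the called members of the mast cell and basophil list 5 were picked, so that their shared direction came with that choice. Whether they share regulation was not tested. The sequences before their start sites are shown. They are the 250 bases upstream of the start in RefSeq's annotation of GRCm38.p6, written 5′ to 3′ on the strand of the gene, and capitals mark the motif AGATAA on either strand, a sequence that factors of the GATA family can bind.
Mcpt8 (chr14:56085198-56085447, minus strand): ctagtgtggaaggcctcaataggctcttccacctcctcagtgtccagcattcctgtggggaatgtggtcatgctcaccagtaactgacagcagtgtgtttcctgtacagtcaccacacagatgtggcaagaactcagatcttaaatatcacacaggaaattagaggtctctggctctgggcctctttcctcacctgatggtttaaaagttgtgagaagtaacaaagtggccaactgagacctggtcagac
Cpa3 (chr3:20242182-20242431, minus strand): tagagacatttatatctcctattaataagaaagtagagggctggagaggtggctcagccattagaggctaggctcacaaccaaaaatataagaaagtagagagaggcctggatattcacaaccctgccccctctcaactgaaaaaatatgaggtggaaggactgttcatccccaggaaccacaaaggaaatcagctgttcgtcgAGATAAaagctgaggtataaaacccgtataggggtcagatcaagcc
Fcer1a (chr1:173227230-173227479, minus strand): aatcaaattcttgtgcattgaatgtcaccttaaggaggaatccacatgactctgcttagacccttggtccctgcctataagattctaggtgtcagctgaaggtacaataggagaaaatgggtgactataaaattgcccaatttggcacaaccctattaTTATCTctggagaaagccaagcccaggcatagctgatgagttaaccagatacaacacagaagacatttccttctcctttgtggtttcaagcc
Ms4a2 (chr19:11623720-11623969, minus strand): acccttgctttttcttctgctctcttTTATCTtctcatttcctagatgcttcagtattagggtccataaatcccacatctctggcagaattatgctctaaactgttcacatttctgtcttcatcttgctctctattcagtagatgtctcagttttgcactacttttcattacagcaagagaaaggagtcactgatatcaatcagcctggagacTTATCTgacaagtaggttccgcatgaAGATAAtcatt
Cd200r3 (chr16:44943428-44943677, plus strand): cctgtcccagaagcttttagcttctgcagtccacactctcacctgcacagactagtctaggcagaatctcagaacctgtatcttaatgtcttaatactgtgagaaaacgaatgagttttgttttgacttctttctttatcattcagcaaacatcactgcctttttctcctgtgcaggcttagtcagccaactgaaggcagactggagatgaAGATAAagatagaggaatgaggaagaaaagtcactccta
The motif stood in 4 of these 5 windows, once each in Cpa3, Fcer1a and Cd200r3, where its last base lay 41, 87 and 34 bases before the start, and 3 times in Ms4a2, between 6 and 219 bases before it. Mcpt8 had no copy in this window. For comparison, 3281 of all 32851 promoters of the table (9.99%) held it in the same window, as did 875 of the 10877 tested genes that matched a promoter by symbol (8.04%). Among genes that matched a promoter, 10 of 64 higher in cKit-negative cells (15.6%) and 2 of 26 lower ones (7.69%) had it. It stood in 5 of 16 tested mast cell and basophil genes and in 4 of the 8 called ones. The called genes of this list that had it were all among the windows shown, so that the share in those windows came with their choice. The motif was chosen after the values had been seen, and a match describes the sequence alone.

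T cell genes formed another group with higher signals. Of 20 tested members 7 were higher and 0 lower in cKit-negative cells, beside 0.592% and 0.289% of all genes (median log2 difference 1.13). Cd3d and Cd3g encode the delta and gamma chains of the CD3 complex, which carries the signal of the T cell receptor. Cd3d had 1478.9, 1478.2 and 1935.3 in cKit-negative cells, against 347.2, 388.9 and 249.9 in total marrow, and was 5.01-fold higher (2.32 ± 0.33, adjusted p = 0.00343). Cd3g had 1622.9, 1356.2 and 1730.0 in cKit-negative cells, against 554.3, 383.5 and 469.5 in total marrow, and was 3.37-fold higher (1.75 ± 0.31, adjusted p = 0.0134). The third chain, Cd3e, and the zeta chain Cd247 did not pass. Cd247 had 910.2, 607.2 and 654.8 in cKit-negative cells, against 342.2, 113.4 and 129.7 in total marrow (adjusted p = 0.0875).

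Cd3g and Cd3d are next to each other in the gene order and start in opposite directions. They made up 1 of 4 pairs of called genes that neighbour each other among the tested genes, and the others were Ccl3 with Ccl4, Gimap4 with Gimap6 and Alox12e with Alox15. Both genes of all 4 pairs were higher in cKit-negative cells. The 250 bases before the start of each CD3 gene are given in the same way.
Cd3d (chr9:44981536-44981785, plus strand): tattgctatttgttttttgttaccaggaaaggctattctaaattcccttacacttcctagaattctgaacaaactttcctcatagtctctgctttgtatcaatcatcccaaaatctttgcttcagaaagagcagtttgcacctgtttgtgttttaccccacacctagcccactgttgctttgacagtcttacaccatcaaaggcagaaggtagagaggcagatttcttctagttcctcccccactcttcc
Cd3g (chr9:44980432-44980681, minus strand): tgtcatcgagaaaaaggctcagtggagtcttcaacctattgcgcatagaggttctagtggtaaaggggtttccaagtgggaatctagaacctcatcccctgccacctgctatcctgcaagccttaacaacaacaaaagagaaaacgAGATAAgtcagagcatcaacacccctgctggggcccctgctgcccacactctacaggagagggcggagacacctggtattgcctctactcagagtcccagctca
AGATAA occurred once in the Cd3g window, with its last base 99 bases before the start, and not in that of Cd3d. Of 15 tested T cell genes with a promoter in the table, 1 held it.

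The other called members were Prkcq, Cd2, Lat, Skap1 and Thy1. Prkcq, the protein kinase C theta of T cell activation, had 2266.2, 2224.5 and 2939.3 in cKit-negative cells, against 320.1, 91.08 and 131.4 in total marrow, with 2 total marrow samples under the floor, and was at least 12.1-fold higher (adjusted p = 0.00189). Cd2, an adhesion receptor of T and natural killer cells, had 1698.4, 1091.1 and 1809.5 in cKit-negative cells, against 269.8, 176.3 and 275.3 in total marrow, and was 6.35-fold higher (2.67 ± 0.42, adjusted p = 0.00552). Cd7, a surface molecule of T and natural killer cells that is in none of the lists, had 4494.0, 3816.9 and 5267.7 in cKit-negative cells, against 1194.2, 242.8 and 187.6 in total marrow, and was 11.8-fold higher (3.57 ± 0.50, adjusted p = 0.00318). In total marrow replicate 1 stood above the other two for Prkcq and Cd7, yet below every cKit-negative sample. The adaptors Lat and Skap1, which pass the receptor's signal on, were 2.35-fold (adjusted p = 0.0131) and 3.16-fold (0.0207) higher, and Thy1, the surface glycoprotein Thy-1, 3.19-fold (0.0476). Another probe set of Skap1 had a log2 difference of 0.26 (adjusted p = 0.933).

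The calls of Cd3d, Prkcq and Cd7 held whichever sample was left out. Cd2 lost its call without cKit-negative replicate 3 alone (adjusted p = 0.0583), Lat without 3 of the 6 samples, Cd3g without 4, Skap1 without 5 and Thy1 without any 1 of the 6. The highest adjusted p was 0.107 for Cd3g and 0.146 for Skap1 without cKit-negative replicate 3, and 0.0949 for Lat and 0.201 for Thy1 without total marrow replicate 3. T cell members that did not pass had log2 differences between -0.32 and 1.90. Among them were signalling molecules of the T cell receptor, the kinase Zap70 at 0.004 (adjusted p = 0.999), Trat1 at -0.26 (0.874), Ubash3a at -0.19 (0.943) and Themis at -0.32 (0.893). The list also held Cd8a, a coreceptor, which had 1777.6, 1558.4 and 1910.9 in cKit-negative cells, against 1098.4, 815.0 and 1031.2 in total marrow (adjusted p = 0.415). Without the outlying cKit-positive sample 11 of the 20 were higher and 0 lower, beside 1.77% and 1.44% of all genes.

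Natural killer and cytotoxic genes had the highest median of the 28 lists, 1.53 on the log2 scale. Of 22 tested members 6 were higher and 0 lower, beside 0.592% and 0.289% of all genes. All 22 log2 differences were above 0, beside 6956 of all 13503 genes. Without the outlying cKit-positive sample 13 members were higher and 0 lower, beside 1.77% and 1.44% of all genes. Ctsw, the cathepsin of cytotoxic lymphocytes, had 6109.8, 2524.4 and 2614.0 in cKit-negative cells, against 431.8, 192.1 and 339.0 in total marrow, and was 11.3-fold higher (3.50 ± 0.44, adjusted p = 0.00189). Gzma, granzyme A, had 20534.0, 6777.7 and 10559.8 in cKit-negative cells, against 1412.4, 1072.9 and 1463.7 in total marrow, and was 8.72-fold higher (3.12 ± 0.52, adjusted p = 0.00894). Ccl5, a chemokine of memory T and natural killer cells, had 19128.8, 12677.8 and 16782.7 in cKit-negative cells, against 2631.7, 2068.2 and 2276.1 in total marrow, and was 6.90-fold higher (2.79 ± 0.53, adjusted p = 0.0222). cKit-negative replicate 1 was the highest sample for each of these genes.

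Receptors of natural killer cells were also among the calls. Klra8, the activating receptor Ly49H, had 2177.9, 982.5 and 1569.4 in cKit-negative cells, against 414.9, 166.2 and 175.6 in total marrow, and was 6.52-fold higher (2.71 ± 0.46, adjusted p = 0.00983), although its probe set is of a type that can also bind transcripts of its close relatives. Klre1, a lectin-like receptor, was 3.66-fold higher (adjusted p = 0.0238), and Fasl, the ligand of the death receptor Fas, 4.61-fold (adjusted p = 0.0476). Gzmb, granzyme B, had 4236.8, 1680.4 and 2628.1 in cKit-negative cells, against 751.8, 747.8 and 1206.6 in total marrow, and did not pass (adjusted p = 0.0925, or 0.0318 without the outlying cKit-positive sample). Ctsw kept its call whichever sample was left out, Gzma lost it without 1 sample, Klra8 without 3, Ccl5 and Klre1 without 5 and Fasl without any 1 of the 6. The highest adjusted p was 0.0672 for Gzma, 0.124 for Ccl5, 0.141 for Klre1, 0.228 for Fasl and 0.075 for Klra8, each without total marrow replicate 2.

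**Figure D2:**
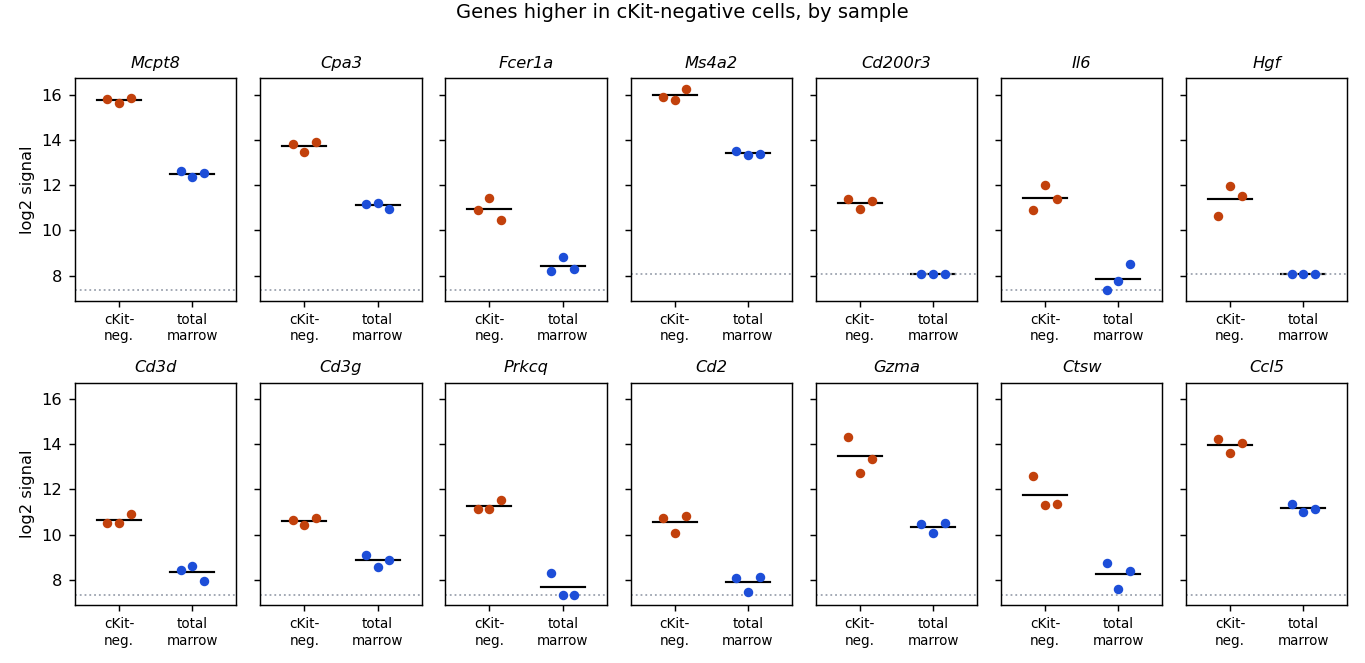
Log2 signal of each sample for 14 genes higher in cKit-negative cells (orange, left of total marrow in blue), with bars at the mean of 3 samples and a dotted line at the floor of the chip type. The 3 cKit-negative samples lie above the 3 total marrow samples in each panel, and Cd200r3 and Hgf lie at the floor in every total marrow sample.

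Of 9 eosinophil genes tested 1 was higher and 0 lower, beside 0.592% and 0.289% of all genes, and that gene was Alox15. This 12/15-lipoxygenase, which eosinophils and macrophages make, had 27272.7, 22635.4 and 19634.0 in cKit-negative cells, against 3833.2, 4445.0 and 6095.4 in total marrow, and was 4.89-fold higher (2.29 ± 0.40, adjusted p = 0.0111, but 0.0507 without cKit-negative replicate 2 and 0.075 without total marrow replicate 2). Il5ra, the receptor for interleukin 5, had 697.1, 1364.1 and 809.0 in cKit-negative cells, against 158.3, 165.4 and 357.2 in total marrow. With total marrow replicate 1 raised to the floor of 162.3 of chip type A, it was at least 4.31-fold higher. It did not pass (adjusted p = 0.0815, or 0.0319 without the outlying cKit-positive sample). The granule proteins did not pass. Epx, eosinophil peroxidase, had 14617.1, 13463.8 and 13937.0 in cKit-negative cells, against 8918.0, 6963.0 and 9617.4 in total marrow (adjusted p = 0.536), and Prg2, major basic protein, had 36352.3, 45702.8 and 37731.4 in cKit-negative cells, against 23422.6, 18911.5 and 36628.8 in total marrow (adjusted p = 0.699). The median of the list was 0.79.

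Of 32 immediate early and heat shock genes, many of which are induced soon after stimulation, 3 were higher and 0 lower, beside 0.592% and 0.289% of all genes, with a median of 0.11 against 0.01 for all genes. Nr4a2, a nuclear receptor, did not pass by its chosen probe set (1.82, adjusted p = 0.0814), but another of its probe sets did (3.25, adjusted p = 0.0181). For the chaperone Hspa8 a probe set with the same limit of its type as that of Klra8 passed (1.52, adjusted p = 0.0328). The chosen Hspa8 probe set had 0.41 (adjusted p = 0.682), and the others had 0.23 (0.854) and -1.17 (0.349). Dusp5, a nuclear phosphatase of ERK, had 10640.2, 11689.2 and 14445.7 in cKit-negative cells, against 929.7, 524.6 and 2953.4 in total marrow, and was 10.8-fold higher (3.43 ± 0.52, adjusted p = 0.00353), a call that held whichever sample was left out. Rgs1, a regulator of G protein signalling, was 4.30-fold higher (adjusted p = 0.0111, but 0.0852 without total marrow replicate 2 and 0.0553 without total marrow replicate 3) and Ier3, an early response gene, 2.75-fold (adjusted p = 0.0452, and between 0.104 and 0.197 when any 1 sample was left out). Ahr, the aryl hydrocarbon receptor, a ligand-activated transcription factor in none of the lists, had 3034.2, 5854.8 and 4001.2 in cKit-negative cells, against 522.3, 647.8 and 862.7 in total marrow, and was 6.25-fold higher (2.64 ± 0.42, adjusted p = 0.00649, with another probe set at 1.44 and 0.174). No sample of Dusp5 or Ahr overlapped between the populations.

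In a pair of lists 1 member alone passed and was higher, beside 0.592% of all genes. Itga2b, the integrin CD41 of platelets, megakaryocytes, mast cells and some progenitors, had 5760.8, 4832.0 and 5050.0 in cKit-negative cells, against 3245.9, 1879.0 and 2051.2 in total marrow, and was 2.24-fold higher (adjusted p = 0.0227, lost without 5 of the 6 samples, up to 0.155 without total marrow replicate 3). It was the single call among 20 megakaryocyte and platelet genes, whose median was -0.05, and the platelet chemokine Pf4 had 3081.3, 769.8 and 2909.3 in cKit-negative cells, against 11367.3, 7461.6 and 7231.5 in total marrow (4.46-fold lower, adjusted p = 0.0526, or 0.0118 without the outlying cKit-positive sample). Ctla2a, which resembles the propeptide of cysteine proteases, was 3.28-fold higher (adjusted p = 0.0321, lost without 4 of the 6 samples, up to 0.176 without total marrow replicate 2), the single call among 29 stem and progenitor genes (median -0.18).

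Calls among genes of granulocyte precursors were all lower. Of 12 tested genes of early granulocytes and monocytes 2 were lower and 0 higher in cKit-negative cells, beside 0.289% and 0.592% of all genes (median -0.98). Fcnb, ficolin B, a lectin of granulocyte precursors, had 6974.7, 12725.0 and 8998.0 in cKit-negative cells, against 39760.4, 43234.4 and 38174.1 in total marrow, and was 4.35-fold lower (-2.12 ± 0.36, adjusted p = 0.00739), a call that held whichever sample was left out. Csf3r, the receptor for the granulocyte growth factor G-CSF, had 2173.6, 3092.2 and 1794.5 in cKit-negative cells, against 6085.1, 8201.5 and 8091.3 in total marrow, and was 3.22-fold lower (-1.69 ± 0.28, adjusted p = 0.00896, but 0.0704 without cKit-negative replicate 3, 0.0672 without total marrow replicate 2 and 0.0626 without total marrow replicate 3). Elane, neutrophil elastase, had 1179.5, 2751.8 and 3378.6 in cKit-negative cells, against 18140.8, 13495.9 and 10343.5 in total marrow (6.14-fold lower), but did not pass (adjusted p = 0.0852, or 0.0152 without the outlying cKit-positive sample).

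Of 25 late granulocyte genes 24 had a log2 difference below 0, beside 6543 of all 13503 genes, and the median was -0.69. In this list 1 gene was lower and 0 higher, beside 0.289% and 0.592% of all genes. That gene was Il1b, interleukin 1 beta, which monocytes and macrophages make too. It had 2737.6, 1900.6 and 1217.0 in cKit-negative cells, against 5312.9, 11895.6 and 17266.8 in total marrow, and was 5.57-fold lower (-2.48 ± 0.49, adjusted p = 0.0296, lost without 4 of the 6 samples, up to 0.179 without total marrow replicate 3). The median log2 signal of the late granulocyte list was 14.3, 14.8 and 13.7 in cKit-negative cells, against 15.4, 15.6 and 15.8 in total marrow. The list's median difference lay between -0.99 and -0.37 when 1 sample was left out. Clec4d, a lectin receptor of myeloid cells, had 1205.5, 2595.9 and 1308.8 in cKit-negative cells, against 4262.6, 7932.5 and 8387.2 in total marrow, and was 4.11-fold lower (-2.04 ± 0.30, adjusted p = 0.00424), while Steap4, a metalloreductase, was at least 5.94-fold lower, with 1 cKit-negative sample at the floor (adjusted p = 0.0218, lost without 3 of the 6 samples, up to 0.197 without total marrow replicate 2). Neither is in a list. None of 25 monocyte and macrophage genes passed (median -0.04).

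Calls in the B lineage were lower in cKit-negative cells, among early and among mature genes. Of 22 mature B and plasma cell genes 2 were lower and 0 higher, beside 0.289% and 0.592% of all genes (median -0.79). Jchain, the joining chain of secreted IgM and IgA, had 217.7, 1125.4 and 611.5 in cKit-negative cells, against 4467.6, 6037.5 and 7211.6 in total marrow, and was 10.9-fold lower (-3.45 ± 0.60, adjusted p = 0.0111), the largest fold among the lower genes, but lost without 3 of the 6 samples. Ms4a1, CD20, had 509.9, 1032.2 and 770.7 in cKit-negative cells, against 4736.2, 3672.7 and 3517.7 in total marrow, and was 5.32-fold lower (-2.41 ± 0.52, adjusted p = 0.0445). The constant region Igha of IgA had 978.4, 6003.8 and 2577.9 in cKit-negative cells, against 14990.9, 14987.1 and 18613.2 in total marrow, and was 6.51-fold lower (adjusted p = 0.0474). A kappa variable gene, Igkv8-30, was 4.92-fold lower (adjusted p = 0.0136), with the same limit of its probe set type as Klra8.

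Of 19 early B lineage genes 1 was lower and 0 higher, beside 0.289% and 0.592% of all genes (median -1.03). The log2 difference was below 0 for 18 of the 19, and for 6543 of all 13503 genes. Cd79a, the alpha signalling chain of the B cell receptor, had 793.4, 1524.0 and 1709.7 in cKit-negative cells, against 4986.4, 3577.9 and 4004.7 in total marrow, and was 3.26-fold lower (-1.70 ± 0.36, adjusted p = 0.0422). In these B lineage genes cKit-negative replicate 1 was the lowest sample, with list medians of 9.72, 10.9 and 11.1 in cKit-negative cells against 11.8, 11.5 and 11.6 in total marrow for early B genes on the log2 scale. Ms4a1 and Cd79a lost their call without any 1 of the 6 samples, Igha without 5 and Igkv8-30 without 3. The highest adjusted p was 0.078 for Jchain, 0.202 for Igha, 0.0782 for Igkv8-30 and 0.158 for Cd79a, each without total marrow replicate 3, and 0.17 for Ms4a1 without total marrow replicate 2. Without the outlying cKit-positive sample 6 of 22 mature and 3 of 19 early B genes were lower and 0 higher, beside 1.44% and 1.77% of all genes.

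Of 13 genes of MHC class II and dendritic cells 1 was lower and 0 higher, beside 0.289% and 0.592% of all genes. It was H2-DMb2, a chain of the peptide-loading molecule DM, which had 1702.8, 1911.7 and 2917.9 in cKit-negative cells, against 8952.0, 4614.0 and 6250.6 in total marrow, and was 3.01-fold lower (adjusted p = 0.0413, and between 0.068 and 0.165 when any 1 sample was left out). Its other probe sets had log2 differences of -0.22 (adjusted p = 0.924) and -1.44 (adjusted p = 0.127). The partner chain H2-DMa had 2585.1, 2958.2 and 3560.9 in cKit-negative cells, against 1724.5, 1526.1 and 2011.2 in total marrow (log2 difference 0.79 ± 0.19, adjusted p = 0.0702). All 13 genes of this list separated the populations without overlap, 6 with higher and 7 with lower signals in cKit-negative cells, where 3149 of 13503 genes did not overlap, and without the outlying cKit-positive sample 4 were higher and 4 lower, beside 1.77% and 1.44% of all genes.

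Genes of red cell precursors were lower on the median but varied within both populations. The median was -0.71 for 15 globin and heme synthesis genes, of which 2 were lower. It was -0.90 for 18 red cell membrane genes, of which 0 passed. For 18 erythroid regulators and enzymes it was -1.09, and 1 of these was lower. None of the genes in these lists was higher. Of all genes 0.289% were lower and 0.592% higher, with a median of 0.01. Slc25a37, mitoferrin 1, which brings iron into mitochondria, had 7934.2, 4659.8 and 2812.4 in cKit-negative cells, against 9117.1, 22245.2 and 21158.5 in total marrow, and was 3.46-fold lower (-1.79 ± 0.37, adjusted p = 0.0376). Fech, ferrochelatase, the last enzyme of heme synthesis, had 23365.0, 10861.1 and 8964.4 in cKit-negative cells, against 23438.4, 49954.6 and 46763.8 in total marrow, and was 2.89-fold lower (-1.53 ± 0.33, adjusted p = 0.0413). Bpgm, which makes the 2,3-bisphosphoglycerate of red cells, had 6359.4, 8917.1 and 3906.9 in cKit-negative cells, against 14190.0, 25912.9 and 25708.0 in total marrow, and was 3.49-fold lower (-1.80 ± 0.34, adjusted p = 0.0177).

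cKit-negative replicate 1 and total marrow replicate 1 lay next to each other for Slc25a37 and Fech. Slc4a1, the anion exchanger of the red cell membrane, had 32769.8, 6814.7 and 6270.7 in cKit-negative cells, against 25079.3, 33868.6 and 41126.1 in total marrow, so that cKit-negative replicate 1 lay within the range of total marrow (adjusted p = 0.199). The median of the red cell membrane list was 12.6, 10.9 and 11.1 in cKit-negative cells, against 12.2, 12.5 and 12.6 in total marrow on the log2 scale, and the list's median difference was -1.69 without cKit-negative replicate 1. On chip type A that sample had a chip lot that the other cKit-negative samples did not share, and the part of lot in this was not tested. Of genes in none of the lists, Tmcc2, a transmembrane and coiled-coil protein, had 4349.4, 1913.5 and 1175.4 in cKit-negative cells, against 6054.8, 22650.7 and 20508.3 in total marrow, and was 6.60-fold lower (adjusted p = 0.0207). Ppp1r3b, a glycogen-targeting subunit of protein phosphatase 1, Apol11b, an apolipoprotein L, and Fbxl5, an F-box protein that senses iron, were 6.63-fold (adjusted p = 0.0241), 4.69-fold (0.028) and 4.11-fold (0.0267) lower. In each of these 4 genes total marrow replicate 1 was the lowest of its population. Of these genes Bpgm lost its call without 3 of the 6 samples and Slc25a37, Fech, Tmcc2, Ppp1r3b, Apol11b and Fbxl5 without 4. The highest adjusted p was 0.133 for Bpgm without total marrow replicate 3, 0.176 for Ppp1r3b and 0.226 for Apol11b without the same sample, and 0.208 for Slc25a37, 0.225 for Fech, 0.148 for Tmcc2 and 0.188 for Fbxl5, each without total marrow replicate 2.

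Among the other lower genes Ica1, islet cell autoantigen 1, had 60.24, 83.99 and 125.3 in cKit-negative cells, all under the floor, against 900.0, 516.8 and 681.5 in total marrow, and was at least 4.20-fold lower (adjusted p = 0.0452). The transcript 4933427D14Rik had 260.5, 592.2 and 296.4 in cKit-negative cells, against 2241.1, 1908.7 and 1688.8 in total marrow, and was at least 5.35-fold lower (adjusted p = 0.0456), with cKit-negative replicate 1 under the floor. Both calls were lost when any 1 sample was left out (adjusted p up to 0.19 and 0.195).

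**Figure D3:**
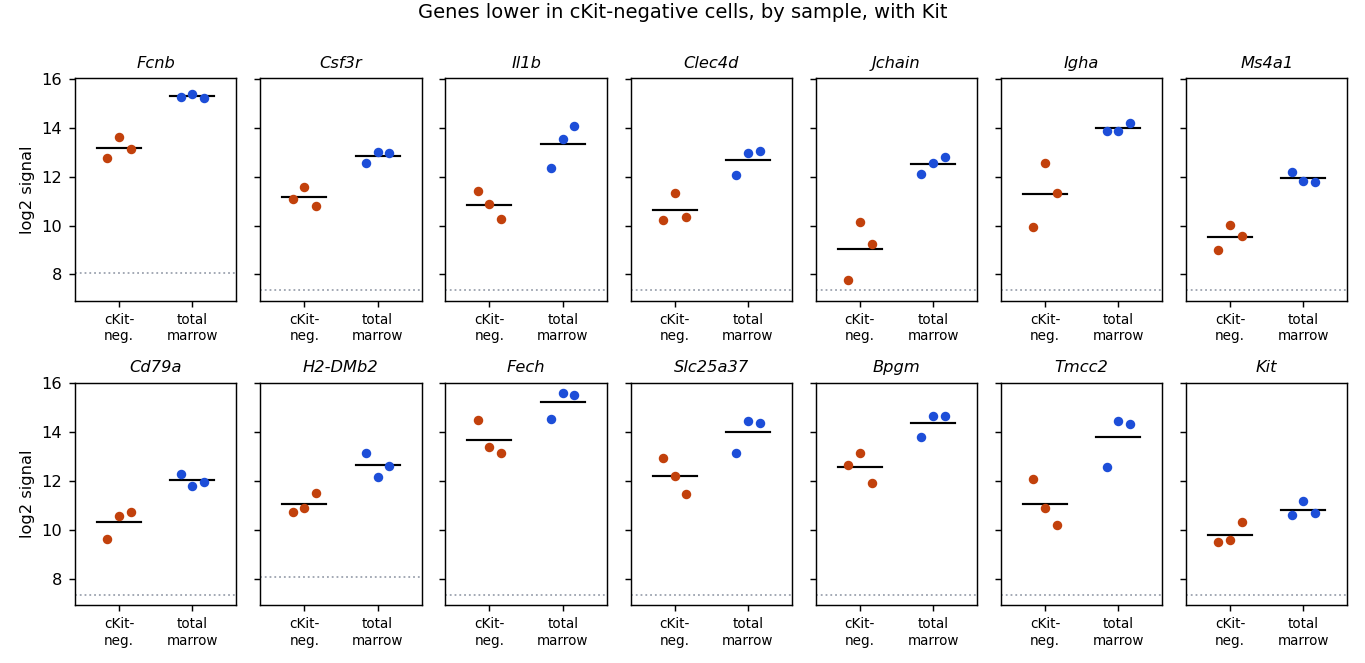
Log2 signal of each sample for 13 genes lower in cKit-negative cells (orange, left of total marrow in blue) and for Kit, with bars at the mean of 3 samples and a dotted line at the floor of the chip type. cKit-negative replicate 1, the first point, lies near total marrow replicate 1 for Fech and Slc25a37 and is the lowest sample for Jchain, Igha, Ms4a1 and Cd79a.

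The remaining lists held no call or calls already named, where 0.592% of all genes were higher and 0.289% lower. The 22 lymphoid transcription factors had a median of 0.60 and 0 calls (2 higher without the outlying cKit-positive sample, beside 1.77% of all genes). The chemokine and chemokine receptor list had 21 tested genes, of which Ccl3, Ccl4 and Ccl5 were higher, with a median of -0.27. Of 21 cytokine receptors Csf3r alone passed (median 0.25), and of 13 arachidonate genes Alox15 alone (median -0.09). The medians were -0.03 for 11 plasmacytoid dendritic cell genes, 0.19 for 15 stromal and endothelial genes, -0.21 for 31 mitosis genes, -0.03 for 36 DNA replication genes, -0.24 for 30 interferon response genes, 0.14 for 28 cytosolic ribosomal protein genes and -0.11 for 37 respiratory chain genes. None of these 7 lists had a member past the threshold by the probe set chosen for its gene. Other probe sets passed for Irf8, a transcription factor of the plasmacytoid list (1.51, adjusted p = 0.0101, beside 0.93 and 0.2 for the chosen one), and for Cdc20, a mitotic activator of protein degradation (-1.12, adjusted p = 0.0134, beside -0.29 and 0.793). The Cdc20 probe set that passed has the same limit of its type as that of Klra8. The 8 lineage surface antigens had a median of 0.58.

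**Figure D4:**
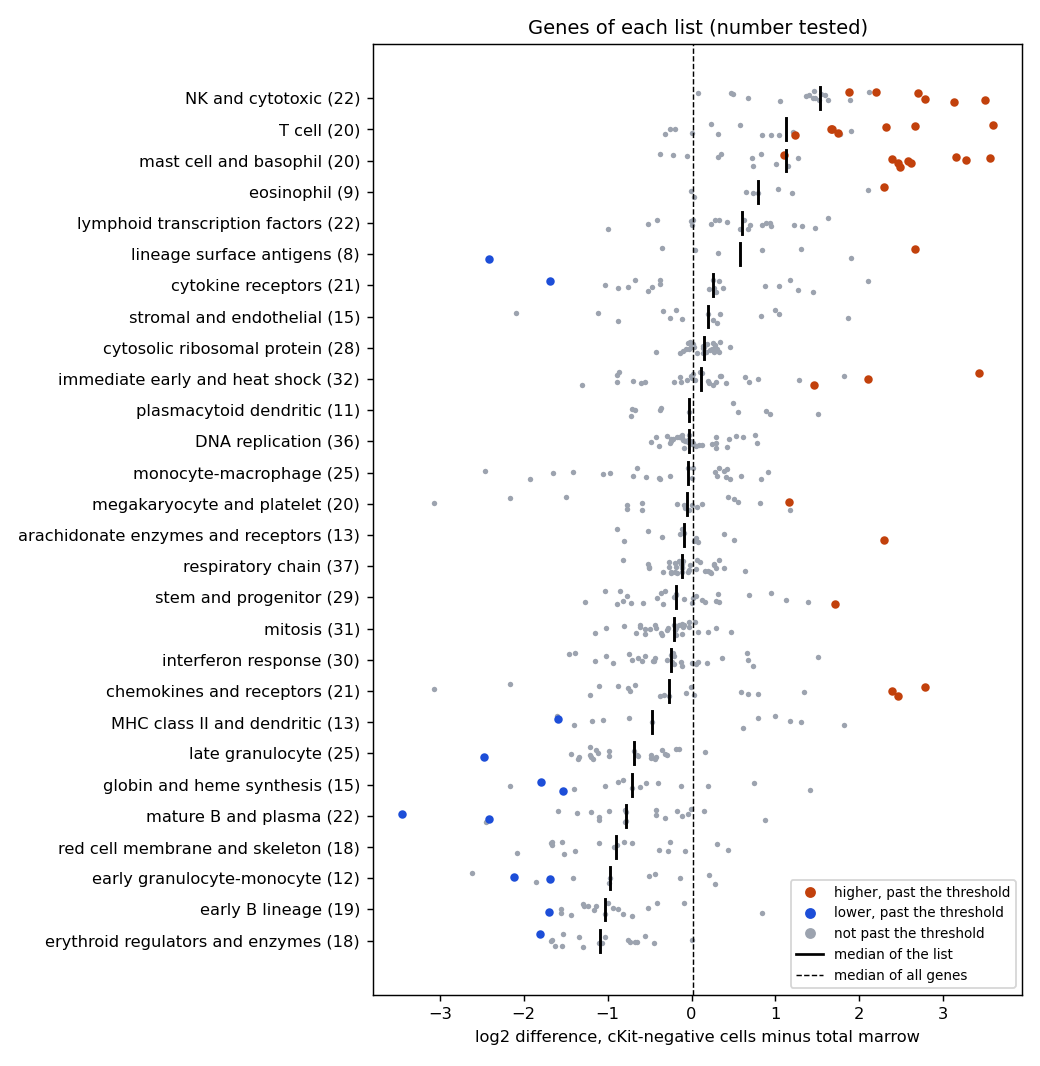
Log2 difference, cKit-negative cells minus total marrow, of each tested gene of 28 lists (vertical bars, list medians; dashed line, median of all genes; vertical jitter without meaning). Calls in orange lie mostly in the natural killer, T cell and mast cell and basophil lists with medians of 1.53, 1.13 and 1.12, and most calls in blue in the granulocyte, B lineage and red cell lists, with medians between -1.09 and -0.69.

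Lineage-depleted marrow is the starting material of the sort, depleted but not divided by Sca-1 and cKit. Since both are set against the same total marrow, the contrast of cKit-negative with lineage-depleted cells is the test of whether their differences from total marrow differ. It called 89 genes higher (0.659%) and 151 lower (1.12%) in cKit-negative cells. Of the mast cell and basophil genes 3 of 20 were higher and 0 lower. Mcpt8 had a mean log2 signal of 15.78 ± 0.11 in cKit-negative cells, against 14.27 ± 0.14 in lineage-depleted cells (SD, n = 3 each) and was 2.86-fold higher (adjusted p = 0.0128). Cpa3 was 1.96-fold (adjusted p = 0.021) and Il6 5.22-fold (adjusted p = 0.0181) higher. Of the T cell genes Cd2 alone was higher (adjusted p = 0.0438), and of the natural killer genes Klra8 alone (adjusted p = 0.0245). Ahr was also higher (adjusted p = 0.00781), while Kit was 3.74-fold lower (adjusted p = 0.00176). For Fcnb, Jchain and Fech the difference did not pass (adjusted p = 0.684, 0.197 and 0.886). Against lineage-depleted cells the median log2 difference was 0.97 for late granulocyte genes and -1.09 for early granulocyte and monocyte genes, of which 2 were lower, beside -0.07 for all genes.

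Over the 5 populations with 3 samples, Mcpt8 and Cpa3 had their highest mean in cKit-negative cells. The mean log2 signal of Cpa3 was 13.73 ± 0.23 in cKit-negative cells, followed by 12.84 ± 0.25 in cKit-positive cells, 12.76 ± 0.17 in lineage-depleted marrow, 11.69 ± 0.07 in the stem-enriched fraction and 11.12 ± 0.14 in total marrow (SD, n = 3 each), where cKit-positive and lineage-depleted cells lay within their spread. Cd3d averaged 10.66 ± 0.22 in cKit-negative cells, next to 9.40 ± 0.16 in lineage-depleted marrow and 8.34 ± 0.33 in total marrow, and lay at the floor in all samples of cKit-positive and stem-enriched cells. Kit had its lowest mean, 9.79 ± 0.46, in cKit-negative cells, next to 10.82 ± 0.31 in total marrow.

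**Figure D5:**
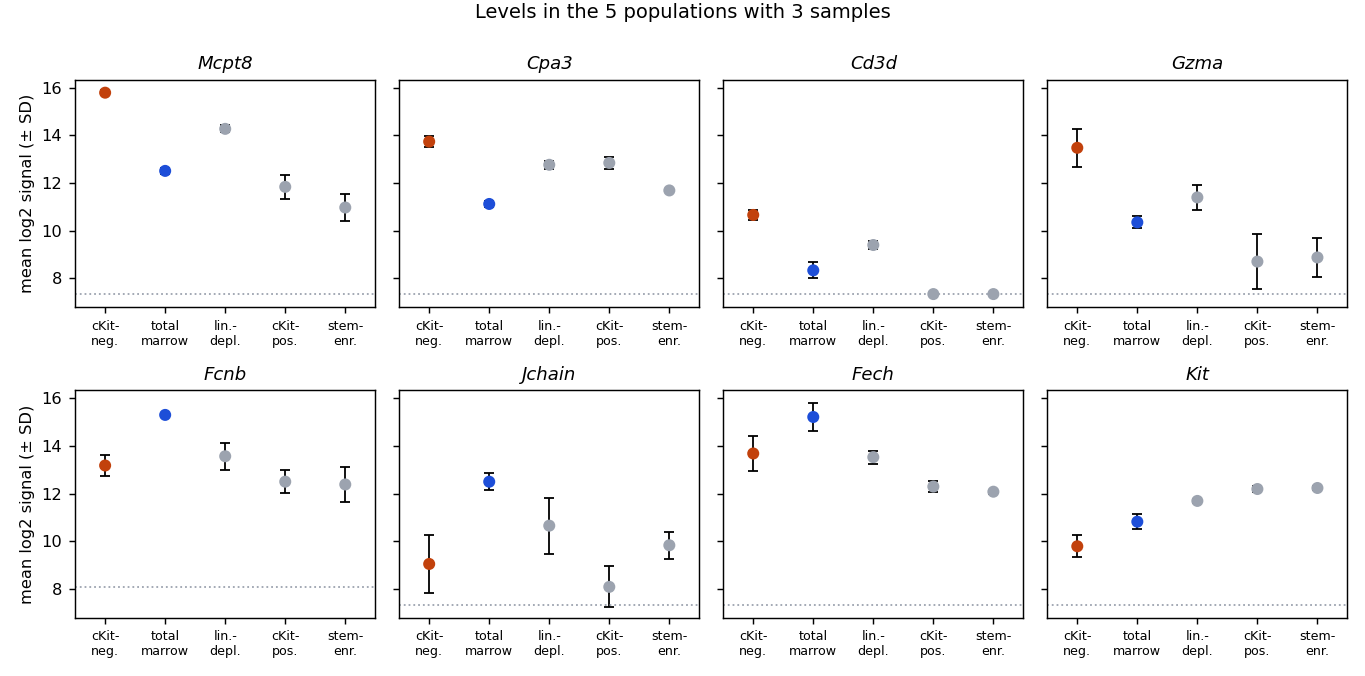
Mean log2 signal ± SD of 3 samples for 8 genes in cKit-negative cells (orange), total marrow (blue) and the other 3 populations with 3 samples (grey); dotted line, floor of the chip type. Mcpt8, Cpa3, Cd3d and Gzma have their highest mean in cKit-negative cells, Fcnb, Jchain and Fech in total marrow, and Kit its lowest in cKit-negative cells.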

How the data were processed

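RNA of marrow populations was hybridised to Affymetrix MOE430A and MOE430B arrays. The values are signal intensities deposited by the authors, made with MAS5 per the submitters' processing notes (its version and settings are not given in the sources used here), and every array had been scaled to nearly the same trimmed mean; the array records on lot and scan day (other text) are also deposited. Signals under the 25th percentile of their chip type were set to it (162.3 on A, 268.1 on B) and log2 was taken. Probe sets above the chip type's median (535.3 on A, 843.8 on B) on at least 3 of 15 arrays were tested with limma 3.58.1 (R 4.3.3; lmFit and eBayes with a variance trend, two-sided), each chip type by itself over 15 samples of 5 populations, p-values of both chip types adjusted together (Benjamini-Hochberg) and a threshold of 0.05. The 100 probe sets on both chip types were kept on A, and control probe sets were left out. Of 45037 probe sets 34945 had 1 gene symbol, 932 several and 9160 none. For each gene, 1 probe set was taken from those that passed: not ending in _x_at before those that do, then the highest mean. Of 119 called genes, 43 had other tested probe sets, and 4 of these had another called the same way and 0 the opposite way. Errors beside log2 differences are standard errors. The analysis was tested on simulated data.

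The samples and gene lists were chosen with earlier results of these data known. Named genes are the 14 largest rises and the 14 largest falls among called genes without overlap, up to 4 called genes of a list in its main direction and 2 in the other (the 2 brightest where none passed), Kit and the lineage antigens, of which the text names part. Fcer1a, Ms4a2, Gata2, Lat, Skap1, Thy1, Cd247, Fasl, Klre1, Gzmb, Il5ra, Epx, Prg2, Elane, H2-DMa, Slc4a1, Pf4, Alox12e, Zap70, Trat1, Ubash3a, Themis, Irf8, Cdc20, Nr4a2, Hspa8 and the genes of the closing observations were chosen after their values were seen. Alternatives changed the normalization, floor, filter, variance trend, fold minimum, probe set rule, blocks, covariate and samples.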

Additional observations from a re-analysis of the deposited data

How the results depend on the processing

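All 193 called probe sets kept their sign under each alternative in which they were tested. Probe sets called higher and lower came to 87 and 30 with no floor, 212 and 167 with a floor at the 50th percentile, 13 and 6 with chip lot as a block on chip type A, 50 and 12 with scan day as a random block, 251 and 165 with only the 2 populations, 421 and 305 without the outlying cKit-positive sample, and 344 and 266 with the Gapdh ratio as a covariate. The Gapdh ratio of the outlying cKit-positive sample was 0.38 on chip type A, far below those of the 6 compared samples. Its part in the counts with the Gapdh covariate was not tested. Without a variance trend 39 probe sets were lower. Leaving out 1 sample gave 50 to 114 higher and 8 to 134 lower, with fewer samples in the fit. The replicate block gave 119 and 56; deviations of same-numbered samples correlated at -0.083, -0.009 and 0.019, so the numbers do not pair the samples. A comparison within a chip lot of type A was not run, since no lot held both populations. Of the 63 named called genes, 6 kept their call in every alternative (Mcpt8, Cpa3, Ccl3, Prkcq, Dusp5 and Fcnb). Dusp5 and Fcnb are on chip type B, where no lot block was fitted and the estimated correlation within a scan day was 0. The lot and scan day blocks could therefore change their calls through the joint adjustment of p-values alone. For differences elsewhere the cause was not tested.

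List medians moved as follows. With a floor at the 50th percentile they were 0.88 (T cell), 0.00 (stromal), 0.071 (cytokine receptors), -0.018 (chemokines) and 0.39 (lymphoid transcription factors). With no filter they were -0.35 (monocyte), 0.42 (MHC class II), 0.10 (stromal), 0.32 (lineage antigens) and -0.004 (chemokines). With a filter at the 75th percentile they were 0.59 (T cell), 1.87 (natural killer), -0.74 (MHC class II), 2.39 (mast cell and basophil), -0.034 (lineage antigens), -0.37 (cytokine receptors) and 0.42 (lymphoid transcription factors). With the lot block they were -1.21 (late granulocyte), -1.33 (early granulocyte), -0.37 (monocyte), 1.27 (natural killer), 1.00 (eosinophil), 0.043 (stromal), -0.29 (cytokine receptors), -1.08 (chemokines), 0.30 (replication) and 0.16 (respiratory chain). With scan day the stromal median was 0.022, and with the mean over probe sets the medians were 0.063 (MHC class II), 0.11 (cytokine receptors) and 0.37 (lymphoid transcription factors). Leaving out 1 sample gave -1.30 to -0.54 for early granulocyte, -1.69 to -0.55 for red cell membrane, -0.485 to -0.024 for chemokine, -0.018 to 0.247 for stromal, 0.46 to 0.61 for lymphoid transcription factor and -0.039 to 0.275 for cytokine receptor genes. It also gave -0.99 to -0.37 for late granulocyte, -1.10 to -0.42 for globin and heme synthesis, -1.30 to -0.68 for early B, -0.42 to -0.16 for mitosis and -0.40 to -0.20 for interferon response genes. Medians near 0 ranged over -0.171 to 0.047 (replication), -0.175 to 0.129 (arachidonate), 0.042 to 0.254 (ribosomal), 0.037 to 0.193 (immediate early), -0.088 to 0.077 (megakaryocyte), -0.2 to 0.094 (monocyte), -0.139 to 0.07 (plasmacytoid), -0.141 to -0.045 (respiratory chain) and -0.245 to 0.0 (stem). The Gapdh log2 ratio differed by 0.28 on chip type B. Ptprc was -0.131 to 0.152 and Itgam -0.579 to 0.052 when 1 sample was left out, with Ptprc at -0.004 without cKit-negative replicate 1. Of T cell genes that did not pass, Zap70 was -0.198 to 0.182, Themis -0.737 to 0.512 and Ubash3a -0.382 to 0.024 when 1 sample was left out, and Zap70 was -0.350 with the lot block, -0.055 with scan day and -0.004 with the Gapdh covariate, and Themis 0.014 with the mean over probe sets.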

Other observations

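Other genes past the threshold, in none of the lists and chosen after their values were seen, are given as values (log2 difference of cKit-negative cells minus total marrow, limma adjusted p). The GTPases of lymphocytes Gimap4 and Gimap6 were higher by 2.37 (0.0449) and 1.95 (0.0376). Cd48 and Cd244a, a ligand and its receptor on natural killer and other leukocytes, were higher by 1.33 (0.00739) and 1.67 (0.0095), and the Src family kinase Fyn by 1.74 (0.00552). Tnfaip3, an inhibitor of NF-kappa B signalling, was higher by 2.16 (0.0305), the macrophage growth factor Csf1 by 1.70 (0.00368), the transcription factor Bhlhe40 by 1.85 (0.00903), Spry2, an inhibitor of receptor tyrosine kinase signalling, by 2.08 (0.00244) and Cd274 (PD-L1), with a total marrow sample at the floor, by at least 2.28 (0.00872). Ppic, cyclophilin C, fell by 1.24 (0.0376) and Gatm, an enzyme of creatine synthesis, by 1.13 (0.0385) in cKit-negative cells. Other probe sets gave 0.52 (0.726) for Spry2, 0.79 (0.495) for Tnfaip3 and 1.00 (0.185) for Gimap6. They gave 1.42 (0.135) and 1.40 (0.229) for Csf1 and 1.48 (0.0678) for Fyn, while another of Gimap4 passed at 2.55 (0.0328). The calls of Cd48, Fyn, Csf1 and Spry2 held whichever of the 6 samples was left out, and those of Gimap4, Tnfaip3, Ppic and Gatm were lost without any 1 of them. With the lot block the calls of Cd48 (0.191), Fyn (0.083), Csf1 (0.124) and Spry2 (0.148) were lost. Csf1 and Spry2 also lost theirs with the mean over probe sets.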
